A study of Saccharomyces cerevisiae with 4 samples.

Results

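The 33 genes described here encode the aminoacyl-tRNA synthetases of *Saccharomyces cerevisiae* in a listed set, 20 for enzymes that serve the cytosol and 13 for enzymes of the mitochondrion. They were taken by name from a list, with no threshold on their signals, and they are 33 of the 5656 genes with a probe set of their own on the array. The mutant strain was MEY12A, in which *CCW12*, the gene of an abundant cell wall mannoprotein, is disrupted by *URA3* (*ccw12*Δ), and the control was its parent SEY6210, a haploid MATα strain taken as the wild type. Both strains carry mutant alleles of *URA3*, *LEU2*, *HIS3*, *TRP1*, *LYS2* and *SUC2*, the deletion in MEY12A bringing back a functional *URA3*, and both were grown to an OD600 of 1 in rich YPD medium with added adenine. Each strain is represented by 2 single-colour Affymetrix Yeast Genome S98 arrays, and cRNA for each came from pooled RNA of 3 preparations.

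Aminoacyl-tRNA synthetases join each amino acid to its tRNAs and so supply the ribosome with charged tRNA. They fall into a pair of unrelated structural classes, I and II, by the fold of their catalytic domain. Mitochondria have their own ribosomes and need charged tRNAs as well. For many amino acids yeast therefore has a second nuclear gene whose product is imported, whereas *ALA1*, *GRS1*, *HTS1* and *VAS1* are each known to give rise to enzyme for both compartments. Uncharged tRNA is sensed by the kinase Gcn2p, which leads to translation of the activator Gcn4p.

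The values are MAS5 signals, linear intensities deposited by the authors for each array. Levels of different genes are not ranked, since probes differ in how brightly they bind, and a difference between 2 probe sets is used only to compare arrays. Each fold change is on the log2 scale, *ccw12*Δ over wild type. A gene was tested when its mean log2 signal over the 4 arrays reached 6.11, a signal of 69.0, which left 4532 genes, with limma and Benjamini-Hochberg adjustment over all of them and a threshold of 0.05. Of the 33 members 31 were tested, all 20 cytosolic enzymes and 11 mitochondrial ones. Each member has 1 probe set.

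The deleted gene gave 4260.3 and 3919.0 on the *ccw12*Δ arrays and 24313.5 and 24118.1 on the wild-type arrays, and its marker *URA3* had 59.5 and 54.2 in *ccw12*Δ beside 3.9 and 6.7 in the wild type. The description of wild type replicate 2 names a different strain of the opposite mating type, but of 6 MATa-specific genes only *MFA2*, with 258.8 and 204.8, had a wild-type signal over 100 on either array, while *MF(ALPHA)1* of MATα cells had 10431.5 and 11686.9. Wild type replicate 1 stood apart. The SD of the log2 difference over all genes tested was 0.40 between the *ccw12*Δ arrays and 0.63 between the wild-type arrays. Control probe sets give the ratio of signal at the 3' end to that at the 5' end of a transcript. For *ACT1* it was 1.49 on both *ccw12*Δ arrays, 2.99 in wild type replicate 1 and 1.38 in wild type replicate 2. For *SPT15* it was 3.05 and 3.69 in *ccw12*Δ replicates 1 and 2, 7.12 in wild type replicate 1 and 2.87 in replicate 2. For *SRB4* the ratios were 2.37, 3.52, 9.82 and 2.20 in the same order. Over all genes tested the median log2 fold change was 0.18, and 0.97 over the 783 genes of chromosomes II, IX and X against 0.09 over the 3749 others. A member on those 3 chromosomes is therefore read against the genes of its chromosome as well.

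No synthetase gene passed the limma test in either direction, with a smallest adjusted p of 0.164 from limma, for *DED81*. Over all genes tested 5.89% passed, 5.30% higher and 0.596% lower in *ccw12*Δ. At an unadjusted p under 0.05 *DED81* was the only member, on the lower side, where 22.0% of all genes passed, 18.1% higher and 3.95% lower in *ccw12*Δ. No member met a fold rule that asks for a mean log2 ratio of 1 or more in size and all 4 ratios between arrays of the strains in 1 direction, which 10.4% of genes met upwards and 2.03% downwards. The log2 fold changes of the members lay between -0.68 and 0.72. With 2 arrays per strain the standard errors of the members were 0.22 to 0.38.

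The cytosolic enzymes had estimates below 0 in 14 of 20 cases, a share of 70.0%, where 35.7% of all genes tested lay below 0. Their median log2 fold change was -0.23, beside 0.18 for all genes. These enzymes were among the brighter genes, with median signals of 2154.3 to 2838.6 on the 4 arrays, beside 293.6 to 369.4 for all genes. Over the 3058 genes left by a filter at the 50th percentile the median log2 fold change was 0.14. The part of signal in this contrast was not tested. In 11 of the 20, a share of 55.0%, both *ccw12*Δ signals lay below both wild-type signals, and 15.5% of all genes did so. In 4 (20.0%) both lay above, beside 37.8% of all genes. The members above 0 were *ILS1*, *GRS1*, *THS1*, *FRS1*, *CDC60* and *YNL247W*, and the first 3 of these are the ones on chromosomes II and IX. Without them 14 of 17 cytosolic members (82.4%) lay below 0, with a median of -0.28, beside 41.6% and 0.09 over the 3749 genes of the other chromosomes. In 11 of the 17 (64.7%) both *ccw12*Δ signals lay below both wild-type signals, beside 18.0% of those genes. No p-value is given for the group, since its members are not replicates of a strain.

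**Figure D1:**
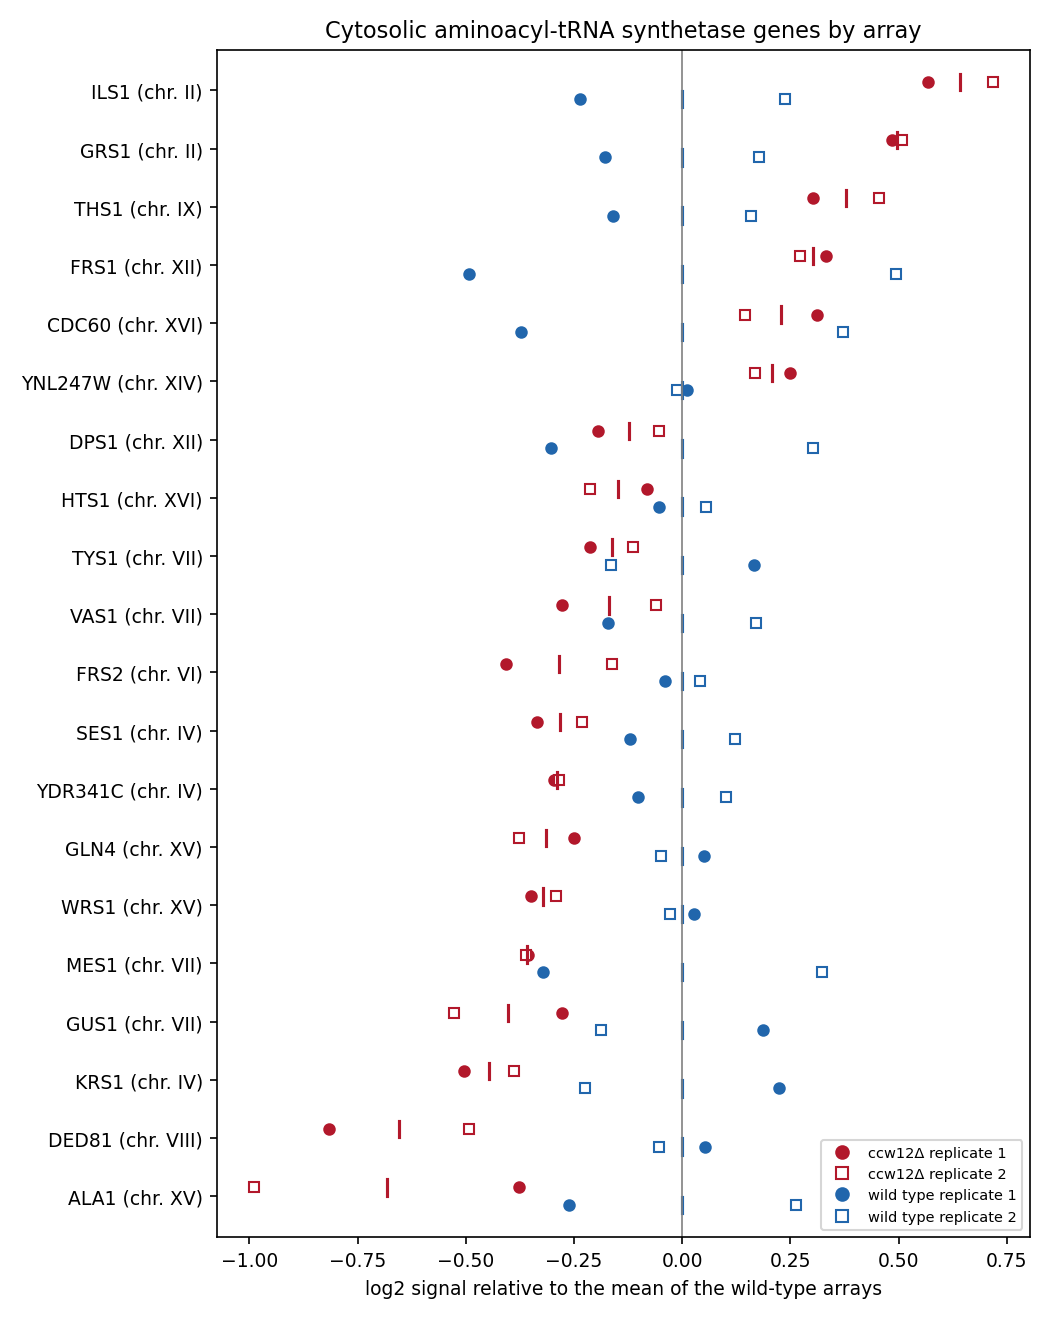
Signals of the 20 cytosolic enzyme genes, as log2 relative to the mean of the wild-type arrays (horizontal axis), with *ccw12*Δ drawn above the wild type for each gene; circles are replicate 1, squares replicate 2 and short bars the strain means. The *ccw12*Δ means run from -0.68 for *ALA1* to 0.64 for *ILS1*, and 14 of 20 lie below 0.

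*ALA1*, coding for alanyl-tRNA synthetase of both compartments, had the lowest estimate of the cytosolic group. Its signals were 1201.3 and 785.8 in *ccw12*Δ cells, against 1299.9 and 1869.5 in wild-type cells. The *ccw12*Δ signals lay below both wild-type signals, but *ccw12*Δ replicate 1 was close to wild type replicate 1. The log2 fold change was -0.68 (limma adjusted p = 0.276, standard error 0.33). *DED81*, the gene of asparaginyl-tRNA synthetase, had 2191.4 and 2741.0 in *ccw12*Δ cells, against 4003.0 and 3719.0 in wild-type cells. Here the strains were well separated and the log2 fold change was -0.65 (standard error 0.25). *KRS1*, coding for lysyl-tRNA synthetase, had 2810.0 and 3043.7 in *ccw12*Δ cells, against 4651.7 and 3410.4 in wild-type cells, for an estimate on the log2 scale of -0.45 (limma adjusted p = 0.354, standard error 0.25).

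*GUS1* and *MES1* code for the glutamyl- and methionyl-tRNA synthetases, which form a complex with the cofactor Arc1p. *GUS1* had signals of 2848.4 and 2396.4 in *ccw12*Δ cells, against 3932.9 and 3033.2 in wild-type cells, and *MES1* had 2781.7 and 2774.3 in *ccw12*Δ cells, against 2848.3 and 4454.6 in wild-type cells. Both had *ccw12*Δ below the wild type without overlap, *MES1* only narrowly so. Its signal in wild type replicate 1 was close to both *ccw12*Δ signals, and only wild type replicate 2 stood apart. The log2 fold changes of *GUS1* and *MES1* were -0.40 and -0.36 (standard errors 0.26 and 0.28). That of *MES1* was -0.04 without wild type replicate 2 and -0.68 without wild type replicate 1. *ARC1* itself, which is not a synthetase, had 2049.1 and 2320.2 in *ccw12*Δ cells, against 1610.9 and 2509.5 in wild-type cells, so that its strains overlapped (log2 fold change 0.12, standard error 0.30).

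Tight replicates marked several members with smaller differences. *WRS1*, the gene of tryptophanyl-tRNA synthetase, had signals of 2117.2 and 2201.0 in *ccw12*Δ cells, against 2749.1 and 2644.1 in wild-type cells (log2 fold change -0.32, standard error 0.25). *GLN4*, for glutaminyl-tRNA synthetase, had 396.8 and 363.6 in *ccw12*Δ cells, against 488.8 and 456.0 in wild-type cells (-0.31, standard error 0.28). *YDR341C*, for arginyl-tRNA synthetase, had 3948.3 and 3975.0 in *ccw12*Δ cells, against 4515.4 and 5198.8 in wild-type cells (-0.29, standard error 0.22). None of these overlapped between strains, and the limma adjusted p was between 0.493 and 0.551, since limma weighs each gene's own spread with that of other genes of like signal.

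*SES1* (seryl) and *HTS1* (histidyl, for both compartments) also had their *ccw12*Δ signals below the wild type. *SES1* had 2259.6 and 2425.6 in *ccw12*Δ cells, against 2619.7 and 3099.4 in wild-type cells, and *HTS1* had 1647.4 and 1504.7 in *ccw12*Δ cells, against 1678.9 and 1811.4 in wild-type cells. Their log2 fold changes were -0.28 and -0.15 (standard errors 0.25 and 0.26). For *HTS1* the separation was narrow, since the highest of its log2 ratios between arrays of the strains was -0.03. Its log2 difference of replicate 1 from replicate 2 was larger in size, 0.13 in *ccw12*Δ and -0.11 in the wild type. The strains overlapped for *VAS1* (valyl, for both compartments), with 1318.8 and 1534.5 in *ccw12*Δ cells, against 1420.7 and 1800.1 in wild-type cells. They overlapped as well for *TYS1* (tyrosyl), with 1076.5 and 1153.7 in *ccw12*Δ cells, against 1399.2 and 1113.1 in wild-type cells, and for *DPS1* (aspartyl), with 3493.9 and 3851.8 in *ccw12*Δ cells, against 3242.1 and 4929.7 in wild-type cells. These 3 had log2 fold changes of -0.17, -0.16 and -0.12.

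Phenylalanyl-tRNA synthetase of the cytosol is built from the products of 2 genes, *FRS1* for the beta subunit and *FRS2* for the alpha subunit, and their signals did not move in parallel over the arrays. *FRS1* had 6373.2 and 6116.1 in *ccw12*Δ cells, against 3595.4 and 7126.3 in wild-type cells. *FRS2* had 1111.0 and 1317.5 in *ccw12*Δ cells, against 1432.7 and 1515.1 in wild-type cells. For *FRS1* wild type replicate 1 lay far under the other 3 arrays, a gap of 0.99 on the log2 scale from replicate 2 and the widest between replicates of any member, while the gap for *FRS2* was 0.08. The log2 fold changes were 0.30 for *FRS1* and -0.28 for *FRS2* (standard errors 0.31 and 0.27). The log2 difference of *FRS1* from *FRS2* was 2.52 and 2.21 on the *ccw12*Δ arrays and 1.33 and 2.23 on the wild-type arrays, so that wild type replicate 1 alone stood apart. Without wild type replicate 1 the *FRS1* log2 fold change was -0.19, and without wild type replicate 2 it was 0.80.

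*CDC60*, the gene of leucyl-tRNA synthetase, showed the same arrangement, with signals of 1336.3 and 1191.4 in *ccw12*Δ cells, against 832.5 and 1393.6 in wild-type cells (log2 fold change 0.23, standard error 0.33). Cysteinyl-tRNA synthetase is encoded by *YNL247W*, named *CRS1* in the RefSeq table. It had 388.4 and 367.0 in *ccw12*Δ cells, against 329.4 and 324.4 in wild-type cells, both *ccw12*Δ signals above the wild type, and a log2 fold change of 0.21 (standard error 0.27). Among the cytosolic members outside chromosomes II, IX and X it was the only one without overlap in that direction.

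The members of chromosomes II and IX had positive estimates in *ccw12*Δ, and chromosome X holds none of the 33. *ILS1* on chromosome II, coding for isoleucyl-tRNA synthetase, had signals of 2099.8 and 2330.7 in *ccw12*Δ cells, against 1202.8 and 1670.6 in wild-type cells. *GRS1* on chromosome II, for the glycyl-tRNA synthetase of both compartments, had 4050.0 and 4115.7 in *ccw12*Δ cells, against 2559.4 and 3277.0 in wild-type cells. *THS1* on chromosome IX, for threonyl-tRNA synthetase, had 4573.4 and 5078.9 in *ccw12*Δ cells, against 3321.2 and 4142.9 in wild-type cells. All 3 had both *ccw12*Δ signals above both wild-type signals, as did 83.5% of all genes tested on chromosomes II, IX and X. The log2 fold changes were 0.64, 0.50 and 0.38 (standard errors 0.28, 0.24 and 0.23, adjusted p = 0.229, 0.282 and 0.397 from limma).

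Set against their own chromosomes, these members were low. The median over all genes tested was 0.94 on chromosome II, where 22.4% of 331 genes passed the test, and 0.89 on chromosome IX, where 22.5% of 151 passed. *ILS1* was higher than 27.5% of the genes of chromosome II, *GRS1* than 19.9%, and *THS1* than 17.9% of the genes of chromosome IX. When the median deviation of each chromosome was subtracted on each array (chromosome-centred), the log2 fold changes turned to -0.28, -0.43 and -0.50 (adjusted p = 0.638, 0.467 and 0.433 from limma), and 17 of the 20 cytosolic enzymes then lay below 0, with a median of -0.35. The centring sets the median of every chromosome to 0 by construction. Whether the rise of chromosomes II, IX and X reflects DNA content or transcription cannot be told apart with these arrays.

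**Figure D2:**
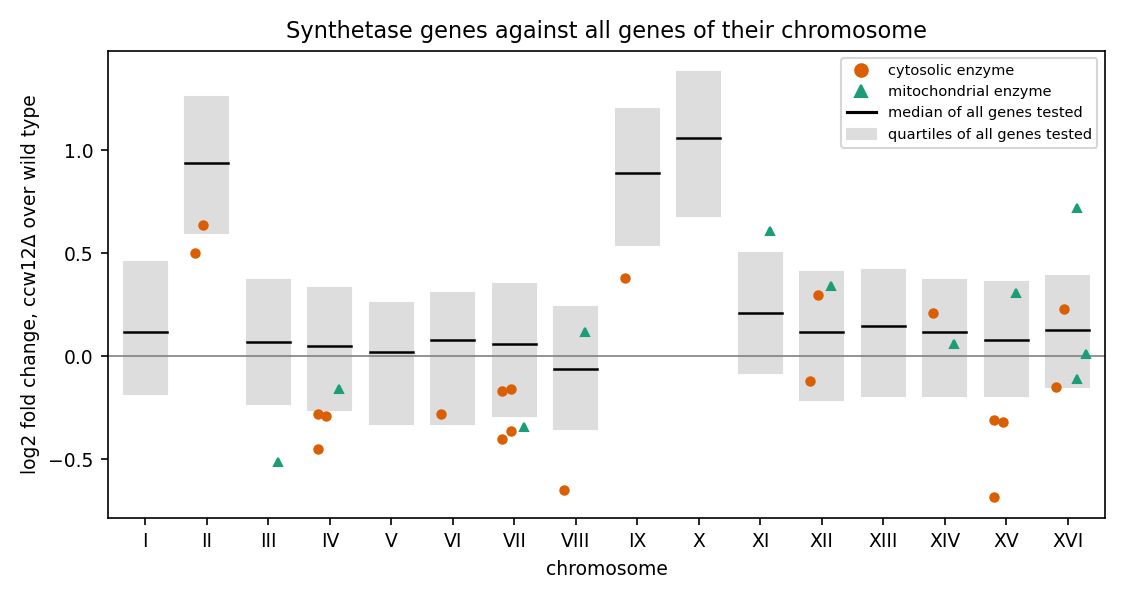
Log2 fold changes of *ccw12*Δ over wild type (vertical axis) of the 31 tested synthetase genes by chromosome (horizontal axis), drawn over the median and quartiles of all genes tested on each chromosome. *ILS1* and *GRS1* (0.64 and 0.50) lie under the chromosome II median of 0.94, and *THS1* (0.38) under the chromosome IX median of 0.89.

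The mitochondrial enzymes lay on either side of 0. Of the 11 tested, 7 had estimates above 0 and 4 below, with a median of 0.06, and none lies on chromosomes II, IX or X. The share below 0 was 36.4%, beside 41.6% of the 3749 genes outside those chromosomes, whose median was 0.09. The counts turned to 4 above and 7 below under quantile normalization, under centring of each array on its median, without *ccw12*Δ replicate 2 and without wild type replicate 2. In these settings the median of all genes tested was 0.04, -0.09, 0.15 and 0.25, beside 0.18 as reported. Both *ccw12*Δ signals were above both wild-type signals for *ISM1*, *MST1*, *NAM2* and *MSE1*, a share of 36.4%. That share was 28.3% among the same 3749 genes and 37.8% when every gene tested was counted. Both signals were below for *MSM1* alone, 9.09%, beside 18.0% of the 3749 and 15.5% of every gene tested. The median gap between replicates of these members was 0.41 on the log2 scale in *ccw12*Δ and 0.12 in the wild type. The signal was higher in *ccw12*Δ replicate 2 for 9 of the 11, beside 2714 of all 4532 genes tested. The median log2 difference of *ccw12*Δ replicate 1 from replicate 2 was -0.35 for them and -0.09 over all genes tested.

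**Figure D3:**
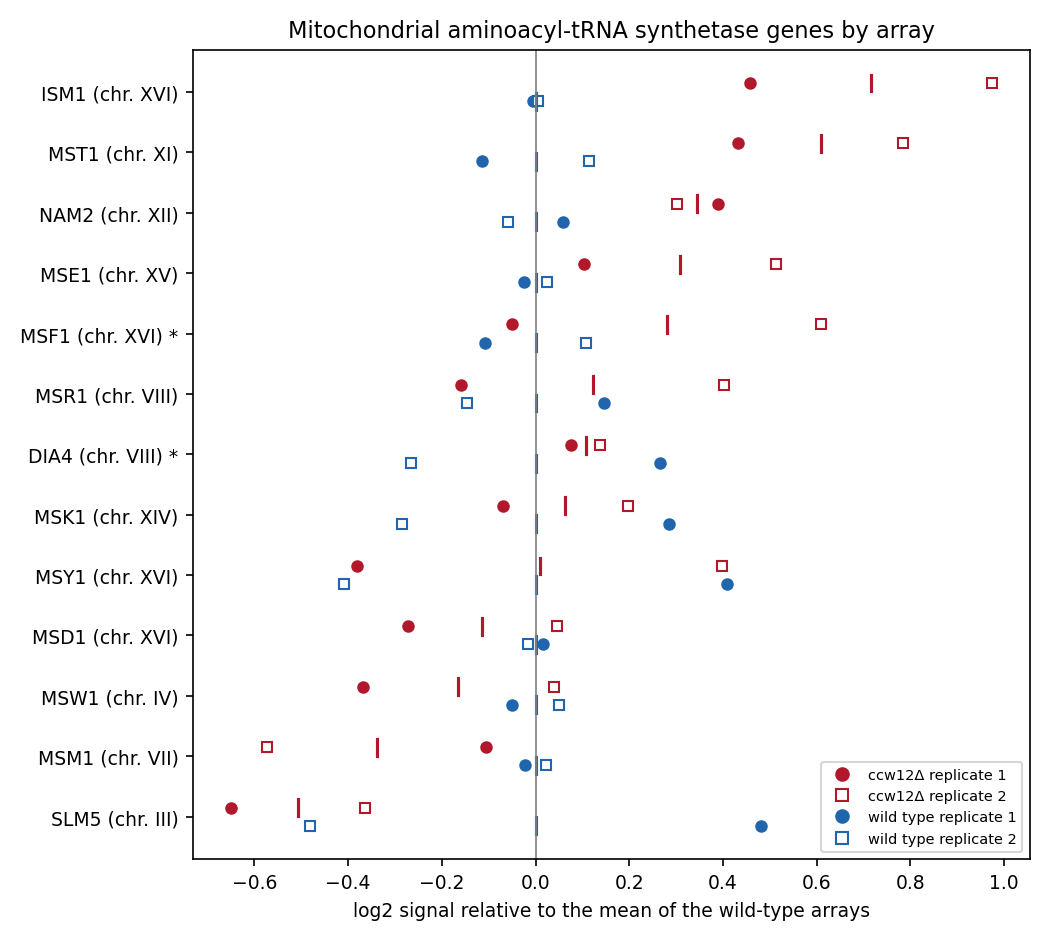
Signals of the 13 mitochondrial enzyme genes, as log2 relative to the mean of the wild-type arrays (horizontal axis), with *ccw12*Δ drawn above the wild type for each gene; circles are replicate 1, squares replicate 2, short bars the strain means, and an asterisk marks the genes too dim to be tested. *ISM1* at 0.72 and *MST1* at 0.61 have the highest *ccw12*Δ means and *SLM5* at -0.51 the lowest.

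*ISM1*, coding for the mitochondrial isoleucyl-tRNA synthetase, had the highest estimate of all members, with signals of 122.8 and 175.6 in *ccw12*Δ cells, against 89.1 and 89.7 in wild-type cells. The wild-type arrays were nearly equal and the *ccw12*Δ arrays 0.52 apart on the log2 scale. The log2 fold change was 0.72 (limma adjusted p = 0.228, standard error 0.32), above 92.3% of the genes of chromosome XVI. *MST1*, for the threonyl enzyme, had 162.4 and 207.3 in *ccw12*Δ cells, against 111.1 and 130.3 in wild-type cells, for an estimate on the log2 scale of 0.61 (limma adjusted p = 0.276, standard error 0.30). *NAM2*, whose product is the leucyl enzyme and also takes part in the splicing of mitochondrial introns, had 159.7 and 150.3 in *ccw12*Δ cells, against 127.1 and 117.1 in wild-type cells (0.34, standard error 0.28). *MSE1*, for the glutamyl enzyme, had 118.7 and 157.6 in *ccw12*Δ cells, against 108.6 and 112.4 in wild-type cells (0.31, standard error 0.30). These 4 genes lie on chromosomes XVI, XI, XII and XV, where the medians of all genes were between 0.08 and 0.21.

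*SLM5*, coding for the mitochondrial asparaginyl enzyme, had the lowest estimate of this group, and it rested on 1 array. Its signals were 108.6 and 132.3 in *ccw12*Δ cells, against 238.0 and 122.0 in wild-type cells, so that only wild type replicate 1 stood apart. The log2 fold change was -0.51 (limma adjusted p = 0.468, standard error 0.37), and -0.03 without wild type replicate 1. *MSM1*, for the methionyl enzyme, had 160.9 and 116.3 in *ccw12*Δ cells, against 170.5 and 175.7 in wild-type cells (-0.34, standard error 0.30). *MSD1*, for the aspartyl enzyme, had 345.8 and 430.9 in *ccw12*Δ cells, against 422.2 and 412.9 in wild-type cells, with overlap (-0.11, standard error 0.28).

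For 4 further mitochondrial enzymes the replicates lay as far apart as the strains. *MSY1*, for the tyrosyl enzyme, had 146.3 and 251.4 in *ccw12*Δ cells, against 253.1 and 143.6 in wild-type cells, nearly the same pair of values in either strain, and its log2 fold change was 0.01 (standard error 0.38). *MSK1*, for the lysyl enzyme, had 288.7 and 347.6 in *ccw12*Δ cells, against 369.4 and 248.6 in wild-type cells (0.06). *MSR1*, for the arginyl enzyme, had 419.0 and 618.3 in *ccw12*Δ cells, against 517.4 and 422.6 in wild-type cells (0.12). *MSW1*, for the tryptophanyl enzyme, had 61.1 and 81.0 in *ccw12*Δ cells, against 76.2 and 81.6 in wild-type cells, close to the level of dim genes (-0.16). In each of these the signals of the strains overlapped.

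*DIA4* and *MSF1*, coding for the mitochondrial seryl and phenylalanyl enzymes, were too dim to be tested. *DIA4* had signals of 43.5 and 45.4 in *ccw12*Δ cells, against 49.6 and 34.3 in wild-type cells, all under the level of 69.0. *MSF1* had 53.2 and 84.1 in *ccw12*Δ cells, against 51.1 and 59.4 in wild-type cells, with only *ccw12*Δ replicate 2 above it. The strains overlapped for both.

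For 13 amino acids the list holds a cytosolic and a mitochondrial enzyme, which gives 14 pairs because of *FRS1* and *FRS2*, and both genes were tested in 11 of them. In these 11 the estimate of the cytosolic gene was below that of its mitochondrial counterpart, with a median difference of -0.16 on the log2 scale. The compartments also differed in signal. Over the 4 arrays the median signal was 2154.3 to 2838.6 for the cytosolic enzymes and 130.3 to 175.6 for the mitochondrial enzymes tested. A difference by compartment cannot be told apart from one by signal here, and the part of signal was not tested. Before any centring by chromosome the glutamyl pair differed most. *GUS1* had -0.40 and *MSE1* 0.31, a difference of -0.71 that ran from -1.25 to -0.17 over the 4 pairs of arrays. The lysyl pair, *KRS1* and *MSK1*, differed by -0.51 (range -0.65 to -0.37), and the threonyl pair, *THS1* and *MST1*, by -0.23 (range -0.38 to -0.09). For the isoleucyl pair, *ILS1* at 0.64 and *ISM1* at 0.72, the methionyl pair, *MES1* at -0.36 and *MSM1* at -0.34, and the aspartyl pair, *DPS1* at -0.12 and *MSD1* at -0.11, the difference was 0.07 or less in size. For the remaining pairs it changed sign between pairs of arrays. After chromosome centring 10 of the 11 differences were below 0, with a median of -0.19. The threonyl and isoleucyl pairs, whose cytosolic genes lie on chromosomes IX and II, were then the farthest apart, at -0.90 and -0.86, and the glutamyl pair was at -0.66. These differences are given as a description, and an exact permutation test of 1 of them, with 2 arrays against 2, cannot give a two-sided p under 0.333.

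**Figure D4:**
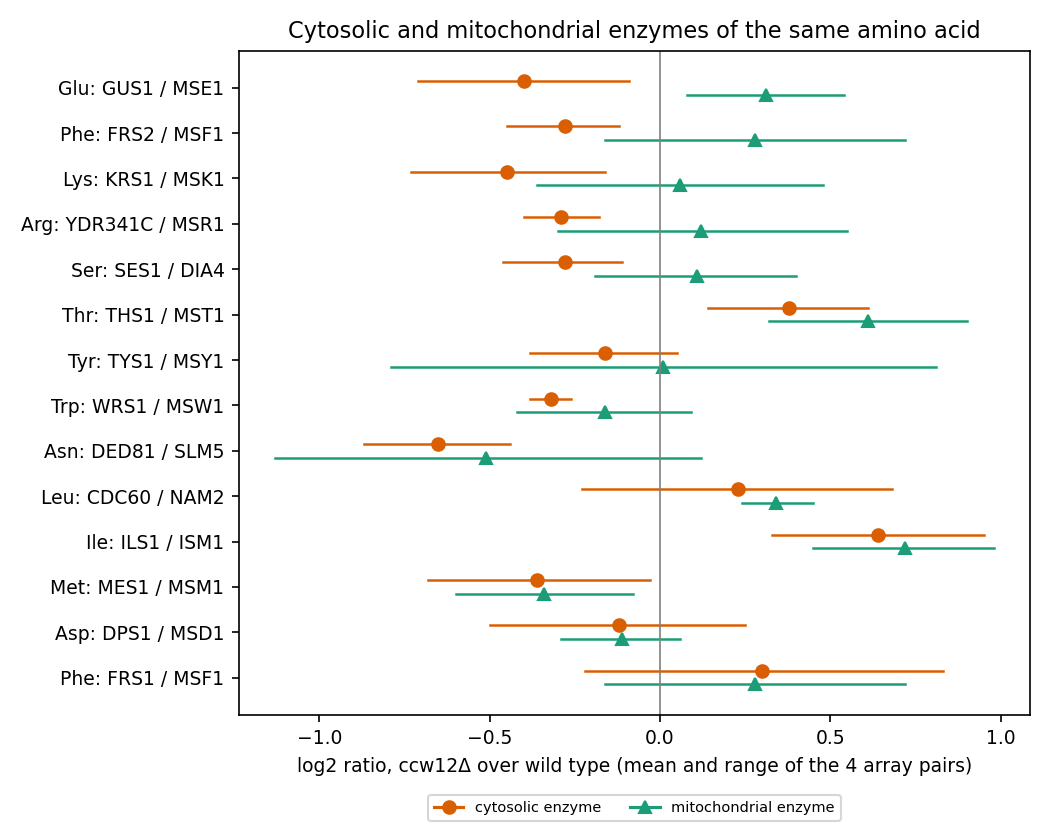
Log2 ratio of *ccw12*Δ over wild type (horizontal axis) for the cytosolic enzyme (circle) and the mitochondrial enzyme (triangle) of the same amino acid, as the mean and the range over the 4 pairs of arrays, ordered by the difference. The glutamyl pair, *GUS1* at -0.40 and *MSE1* at 0.31, is the farthest apart of those with both genes tested on this scale, while after chromosome centring the threonyl (-0.90) and isoleucyl (-0.86) pairs are farther apart than it (-0.66).

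The gap between the compartments depended on how the arrays were scaled and on single arrays. The median of the cytosolic enzymes minus that of the mitochondrial enzymes was -0.29 on the log2 scale. Centring each array on 1 value cannot move it, since every gene of the array shifts alike. It was -0.04 after quantile normalization, where the medians were -0.17 for the cytosolic and -0.14 for the mitochondrial enzymes. Without wild type replicate 2 it was -0.01 and without wild type replicate 1 it was -0.53, while without *ccw12*Δ replicate 1 and replicate 2 it was -0.49 and -0.16. The median of the cytosolic enzymes stayed below 0 in each of these settings, between -0.50 and -0.13, and that of the mitochondrial enzymes lay between -0.21 and 0.30.

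**Figure D5:**
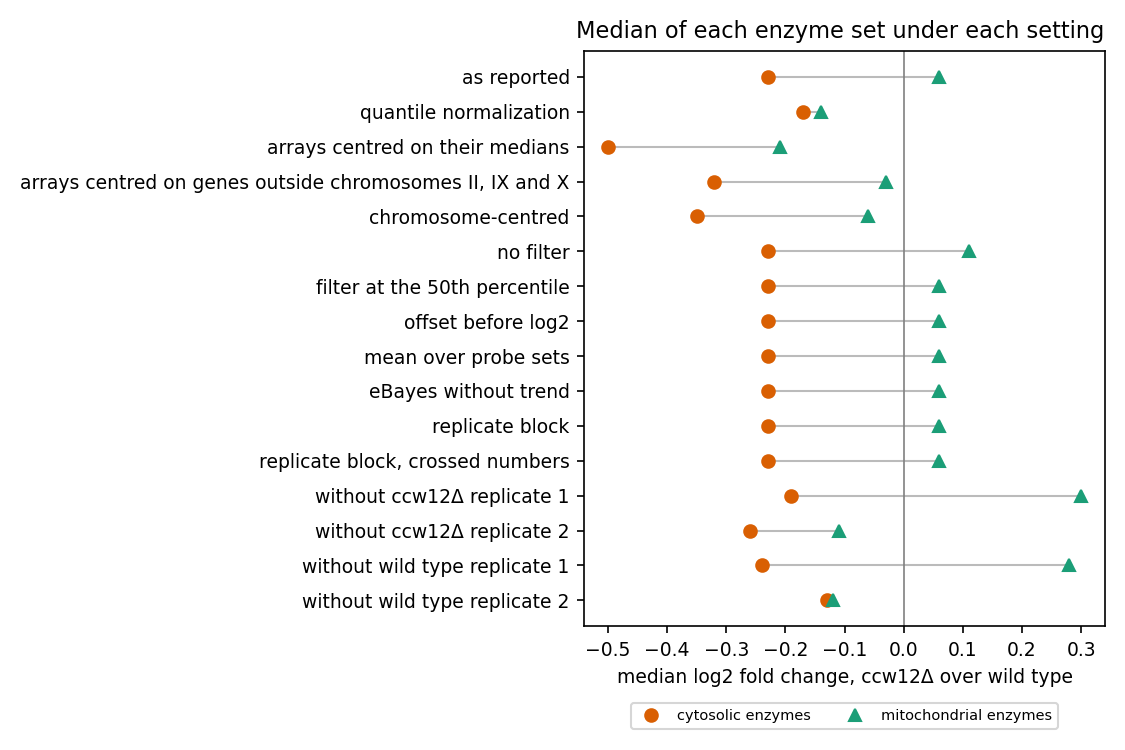
Median log2 fold change of *ccw12*Δ over wild type (horizontal axis) of the tested cytosolic enzymes (circles) and mitochondrial enzymes (triangles), with the values as reported on top and an alternative setting in each row below. The cytosolic median lies between -0.50 and -0.13 throughout, and the mitochondrial median, 0.06 as reported, lies on both sides of 0.

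By enzyme class the counts were close. Of the cytosolic enzymes, 7 of 10 of class I and 7 of 10 of class II lay below 0, with medians of -0.23 and -0.22. Among the mitochondrial enzymes tested, 2 of 7 of class I and 2 of 4 of class II lay below 0, with medians of 0.12 and -0.02. The 4 genes taken here as serving both compartments, *ALA1*, *HTS1*, *VAS1* and *GRS1*, had estimates of -0.68, -0.15, -0.17 and 0.50. After chromosome centring these were -0.77, -0.29, -0.21 and -0.43.

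Leaving out a wild-type array changed which members passed. Without wild type replicate 1, *ALA1* and *MES1* were lower in *ccw12*Δ, with estimates of -0.94 and -0.68 (limma adjusted p = 0.0067 and 0.0315), and 15.9% of all genes passed. Without wild type replicate 2, *DED81*, *KRS1*, *GUS1* and *SLM5* were lower and *FRS1*, *ILS1* and *GRS1* higher (adjusted p between 0.00189 and 0.0487 from limma), and 31.6% of all genes passed. In both cases the lone wild-type array was assumed to vary like the *ccw12*Δ arrays, and the members called were different ones. With either 1 of the *ccw12*Δ arrays left out, no member passed. Of the 20 cytosolic members, 13 had the lower signal in wild type replicate 1 than in replicate 2, beside 2549 of all 4532 genes tested. The median log2 difference between these arrays was -0.35 for the 10 longer cytosolic genes (2004 to 3315 bases of coding length) and -0.10 for the 10 shorter ones (1185 to 1824 bases), and Pearson's r of the difference with log2 length was -0.41 over the 20 genes, which share the same arrays, against -0.17 over all 4532 (Spearman's rho -0.43 and -0.07). The difference of *ccw12*Δ replicate 1 from replicate 2 ran the other way with length, with r of 0.34 over the 20 genes and 0.22 over all. The median log2 fold change was 0.02 for the 10 longer cytosolic genes, which include *ILS1*, *GRS1* and *THS1*, and -0.28 for the 10 shorter ones. Pearson's r of the fold change with log2 length was 0.30 over the 20 genes and 0.14 over all (Spearman's rho 0.17 and 0.08). The part of the 3' to 5' ratio of wild type replicate 1 in these values was not tested.

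Other genes of tRNA charging gave a call only on chromosome II. Of 10 such genes 1 passed, beside 5.89% of all genes and 22.4% of those on chromosome II. It was *PET112*, 1 of the genes for the mitochondrial amidotransferase that makes Gln-tRNA from Glu-tRNA. The other 9 did not pass. The signals of *PET112* were 169.8 and 213.2 in *ccw12*Δ cells, against 68.0 and 57.1 in wild-type cells (limma adjusted p = 0.0290). Both wild-type signals lay under the level of dim genes, and with that level in their place *PET112* was at least 2.76-fold higher. After chromosome centring its log2 fold change was 0.69 (limma adjusted p = 0.415) and the call was lost. The other subunit genes, *HER2* and *GTF1*, which are not on chromosomes II, IX or X, had log2 fold changes of -0.11 and 0.53.

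*YHR020W*, the gene of the cytosolic prolyl-tRNA synthetase, is not in the list of 33, but it lies next to *DED81* on chromosome VIII and is shown beside it. It had signals of 2543.6 and 2488.7 in *ccw12*Δ cells, against 4929.2 and 3656.4 in wild-type cells, for an estimate on the log2 scale of -0.75 (limma adjusted p = 0.122, standard error 0.25). The mitochondrial prolyl enzyme, *AIM10*, had 166.5 and 246.4 in *ccw12*Δ cells, against 296.8 and 134.1 in wild-type cells, and the second glycyl-tRNA synthetase gene, *GRS2*, had 90.0 and 90.2 in *ccw12*Δ cells, against 133.9 and 67.4 in wild-type cells. Both overlapped between strains. *DTD1*, for an enzyme that removes D-amino acids from tRNA, had 913.9 and 736.2 in *ccw12*Δ cells, against 484.5 and 480.8 in wild-type cells (log2 fold change 0.77, standard error 0.29, adjusted p = 0.161 from limma).

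Of 13 genes of general amino acid control 1 passed and 12 did not, beside 5.89% of all genes, with a median log2 fold change near 0. *GCN4*, coding for the activator, had 5875.3 and 5448.0 in *ccw12*Δ cells, against 4582.3 and 5575.2 in wild-type cells, and *GCN2*, for the kinase, had 105.2 and 107.6 in *ccw12*Δ cells, against 41.2 and 121.4 in wild-type cells. *GCN4* activity is set largely by translation, which the arrays do not measure. The gene that passed was *SUI2* on chromosome X, coding for the eIF2 subunit that Gcn2p phosphorylates, with 1334.9 and 1140.5 in *ccw12*Δ cells, against 442.8 and 349.3 in wild-type cells (log2 fold change 1.65, standard error 0.29, adjusted p = 0.0247 from limma). After chromosome centring it had 0.58 (limma adjusted p = 0.415).

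Genes of tRNA splicing, end processing and modification gave 1 call among 55 tested of 58 listed, beside 5.89% of all genes, with 54 not passing and a median log2 fold change of 0.08. It was *TRL1* on chromosome X, the tRNA ligase gene, with 166.8 and 151.7 in *ccw12*Δ cells, against 40.8 and 52.6 in wild-type cells, and was at least 2.31-fold higher with the level of dim genes in place of the wild-type signals (limma adjusted p = 0.0252). After chromosome centring its log2 fold change was 0.71 (limma adjusted p = 0.415). The lowest estimates were those of *DEG1*, for a pseudouridine synthase, at -0.60 and *ELP2*, for a subunit of the Elongator complex, at -0.60 (adjusted p = 0.458 and 0.263 from limma). All 3 genes called in these related lists lie on chromosomes II and X, where 22.4% and 31.6% of all genes tested passed, and none was called with the arrays centred on their medians.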

How the data were processed

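Total RNA of *ccw12*Δ and wild-type yeast was measured on 4 arrays, 2 per strain. The intensity values were deposited by the authors as 1 linear signal per probe set, made in the GCOS software. MAS5 is credited to the submitters' processing notes, and its version and any scaling between arrays are not given in the sources used here. Precision depends on the low number of arrays. Each array is a separate pool of RNA, so p-values rest on the spread between pools.

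Of 9335 probe sets, 6504 name 1 gene and 328 several, which were not used. Members were matched by locus tag to the RefSeq R64 table (33 of 33), from which chromosomes and lengths come. The brightest probe set stood for a gene. The 19 signals listed as zero were raised to 0.1 ahead of log2. Genes under the 25th percentile of mean log2 signal over single-gene probe sets were left out. Tests were run in R 4.3.3 with limma 3.58.1 (linear model and moderated variance with a trend, prior degrees of freedom 6.71). The fit was checked on simulated data with the same spread for every gene and no shift of an array or chromosome. That check does not cover the differences between arrays and chromosomes seen here. Figures were drawn with matplotlib 3.10.9.

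The members and related lists were chosen with earlier results of these data known. Every member is accounted for. Values on each array were required for members on chromosomes II, IX or X, those with the 3 highest and 3 lowest estimates in each compartment, those serving both compartments and the 2 with the widest replicate gap, and for called genes of the related lists; of the other related genes, some with the highest or lowest estimates and some for their role are named. Alternatives were other scalings, filters, an offset of 7.2, all probe sets of a gene, variance moderation without trend, the replicate number as a block and each array left out.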

Additional observations from a re-analysis of the deposited data

How the results depend on the processing

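No synthetase gene passed in any of 11 alternative settings that kept all 4 arrays. Over all genes 267 passed as reported, 43 with arrays centred on their medians and 117 after quantile normalization. Centring on genes outside chromosomes II, IX and X gave 70, centring by chromosome 27 and dropping the filter on dim genes 39. With the replicate number as a block 625 passed, and 625 with the numbers crossed, a pairing added after seeing the data because deviations of same-numbered arrays correlated at -0.14. The numbers are not known to pair the arrays. The block called none of the 31 members and 6 of the 78 genes tested in the related lists, beside 13.8% of all genes. Leaving out 1 array gave between 76 and 1433 genes, between 0 and 6 cytosolic and between 0 and 1 mitochondrial enzymes.
The cytosolic median of -0.23 moved to -0.50 with arrays centred on their medians and -0.35 chromosome-centred. The mitochondrial median of 0.06 was -0.21 with arrays centred on their medians, -0.14 under quantile normalization, -0.03 centred on genes outside chromosomes II, IX and X and -0.06 chromosome-centred, and lay between -0.12 and 0.30 with 1 array left out. The median of *ILS1*, *GRS1* and *THS1* was 0.50, 0.22 with arrays centred on their medians and -0.43 chromosome-centred, where the genes had -0.28, -0.43 and -0.50. With 1 array left out, 3 cytosolic and 5 mitochondrial members took either sign. *FRS1* lay between -0.19 and 0.80, *CDC60* between -0.14 and 0.60, *DPS1* between -0.43 and 0.18, *MSY1* between -0.40 and 0.42, *MSK1* between -0.22 and 0.35, *MSR1* between -0.16 and 0.40, *MSD1* between -0.27 and 0.05 and *MSW1* between -0.37 and 0.04, while *VAS1* lay between -0.34 and 0.00. The median of all genes was 0.18 as reported and -0.09 with arrays centred on their medians.
The 3 calls in the related lists became 1 after quantile normalization and 1 with the filter at the 50th percentile. They became 0 with both kinds of array centring, chromosome-centred and without a filter, 6 with the replicate block and 6 with it crossed, and between 1 and 20 with 1 array left out. The causes were not tested.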
